A study of Mus musculus with 13 samples.

Results

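Gnl3l, Cds2, Kif3c, Bri3bp and Arf3 are 5 mouse genes whose transcripts carry adenosine-to-inosine editing sites in the 3' UTR. They were put together because sites in them had higher editing levels in the genotypes with more Adar RNA, so the editing levels chose the genes and are given here as a description, with nothing read from a test of them. Their members are all 171 listed sites that lie inside these genes on the gene's strand with an adenosine in the reference, of 64465 such sites in all. Of these, 71 sites had at least 10 adenosine plus guanosine reads in each of 13 libraries and a pooled level of 1 to 99%, and carry the values below. Among the other 100 sites, 42 were not in every table, 17 had fewer reads and 41 lay outside the level limits. Just below the lower limit, the highest level left out in a gene was 0.678 to 0.826%, and just above it the lowest level kept was 1.01 to 1.63%, apart from Arf3, where the lowest was 7.36% and no site was left out for its level.

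RNA of whole brain was sequenced from 13 C57BL/6 mice of 4 genotypes of Adar, the gene of the editing enzyme ADAR1. There were 3 P195A/- mice, 42 days old, 4 P195A/P195A mice, 42 or 48 days old, 3 P195A/+ mice, 43 days old, and 3 wild-type mice, 2 of them 48 and 1 of them 74 days old. Every group held 1 male. For P195A/- a second, longer label puts P195A in the place of both alleles and a heterozygous Adar knockout beside it, a discrepancy the labels do not explain, and the short name is used here. P195A/- and P195A/+ animals had no wild-type animal of their age, so there age and genotype cannot be told apart. The P195A/P195A animals of 42 days had none either, while those of 48 days did. The only wild-type male was the animal of 74 days. A level in whole brain is a mean over its cell types.

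ADAR enzymes bind double-stranded RNA and deaminate adenosine to inosine, which is read as guanosine, so the level of a site is the share of guanosine among adenosine plus guanosine reads. In mouse brain most editing lies outside coding sequence, where a pair of inverted repeats in a 3' UTR or an intron can fold back into a long duplex with several edited adenosines. ADAR1 has a short nuclear form and a long, interferon-inducible and mainly cytoplasmic form, whose N-terminal Z-nucleic acid binding domain holds the P195A substitution. ADARB1 (ADAR2) is the other active editing enzyme of brain.

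The sites are named below by their base in the 3' UTR, counted from 1 after the stop codon of the annotated transcript that holds them. The stretches of 29 bases around the sites are shown because the levels turn on single adenosines among many. They are read 5' to 3' on the transcript strand from GENCODE M21 transcripts (GRCm38, mm10), and each capital marks an adenosine whose editing level is used.
Gnl3l base 2229, chrX:150983861-150983889, minus strand: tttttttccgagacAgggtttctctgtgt
Gnl3l base 1486, chrX:150984604-150984632, minus strand: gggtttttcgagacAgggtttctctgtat
Cds2 base 4348, chr2:132309619-132309647, plus strand: atcatacagtgcttAatatgtgccagaca
Cds2 bases 4588, 4595 and 4599, chr2:132309859-132309887, plus strand: agctaacgcatgtaAgcatttAgcaAggt
Kif3c bases 1282 and 1283, chr12:3404154-3404182, plus strand: atacatgaatgcaAAggccagaggcatgg
Kif3c base 1363, chr12:3404234-3404262, plus strand: tgggacttgaactcAggtcttctggagga
Kif3c bases 1752, 1762 and 1763, chr12:3404623-3404651, plus strand: cttgctgctgttccAgagggacccAAggt
Bri3bp bases 2010 and 2013, chr5:125456752-125456780, plus strand: gttgaatatatAtaAtgtgtatatacata
Bri3bp base 2174, chr5:125456913-125456941, plus strand: gccttgaacttgctAagtagctgagactg
Bri3bp bases 2712, 2723 to 2725 and 2728, chr5:125457463-125457491, plus strand: caActctctgtgtAAAccAggctgccctc
Arf3 bases 3220 and 3221, chr15:98737098-98737126, minus strand: ctgtatagcctcgAActcagaaatccgcc
The stretches around Gnl3l bases 1486 and 2229 are the most alike of those compared, with 24 of 29 identical bases and a shared run of 19 bases that holds the edited adenosine. All other pairs of stretches share at most 13 bases at the same place.

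Of the 71 sites, 65 lay in the 3' UTR and 6 in introns. Gnl3l had 20 sites in the 3' UTR, Bri3bp 25 and Cds2 8, while Kif3c had 10 in the 3' UTR and 4 in an intron, and Arf3 had 2 in the 3' UTR and 2 in introns. The 3' UTR sites of a gene spanned 1655 bases in Gnl3l, 1074 in Cds2, 938 in Bri3bp, 482 in Kif3c and 2 in Arf3. The 71 sites were read more deeply than the rest, with a median of 180 reads per site and library against 27 at 9651 used sites outside the 5 genes and 40 at the 1716 of those in 3' UTRs. Sites of a gene share reads and an RNA fold, so they are no replicates of each other. Cytosine and thymine reads, the background of miscalled bases, made up at most 0.643% at any of the 71 sites, with a median of 0.

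A BLAST comparison of each transcript with its own reverse complement placed 53 of the 65 3' UTR sites (81.5%) in self-complementary stretches, against 76.2% of 3' UTR sites outside the 5 genes. In Gnl3l, chrX:150985409-150985531 and chrX:150984507-150984628 aligned over 123 bases at 80.5% identity with 780 bases between them, and held 17 of the 20 sites, 13 in the arm nearer the stop codon and 4 in the other. The nearer arm had a further partner at chrX:150983773-150983902 with 74.8% identity, which holds base 2229. In Cds2, chr2:132309626-132309695 and chr2:132309838-132309908 aligned over 71 bases at 77.5% identity across a gap of 142 bases, and held 7 of the 8 sites. Bri3bp had 15 sites inside chr5:125456597-125456952 and 10 inside chr5:125457162-125457555, stretches that were complementary to themselves at 65.8% and 73.8% identity. No such stretch was found at the Kif3c and Arf3 sites.

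RNAfold predicted 49 of the 65 sites to be paired, 12 to lie in a mismatch of a single base on each strand and 4 to be unpaired. At all 12 mismatches the base opposite the edited adenosine was a cytosine. Those 12 sites had a median level of 13.7%, reaching 86.8%, and the 49 paired sites had a median level of 7.77%, reaching 74.7%. The sites with the highest mean level in Cds2, Bri3bp and Gnl3l, bases 4595, 1852 and 1486, were among the A-C mismatches. A guanosine stood 5' of the edited base at 3.08% of the sites, against 7.35% of 1715 other 3' UTR sites, and 3' of it at 46.2%, against 46.3%. Adjacent adenosines differed widely in level: over the 13 libraries, Bri3bp bases 2723, 2724 and 2725 averaged 13.3, 45.7 and 5.85%, Kif3c bases 1762 and 1763 averaged 67.2 and 30.9%, and Arf3 bases 3220 and 3221 averaged 8.1 and 65.4%.

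Adar RNA, the measure the 5 genes were set against, averaged 201.3 ± 4.28 CPM (counts scaled to a common library size) in P195A/- brains, 322.7 ± 28.6 in P195A/P195A, 239.8 ± 6.63 in P195A/+ and 180.1 ± 13.3 in wild type (SD, n = 3, 4, 3 and 3). It rose in P195A/P195A by 0.84 on the log2 scale against wild type (SE 0.0775, edgeR quasi-likelihood test, adjusted p = 5.91e-05) and fell in P195A/- by 0.68 against P195A/P195A (SE 0.0772, adjusted p = 0.000773). In P195A/+ the difference from wild type was 0.41 (adjusted p = 0.232, or 0.00508 with DESeq2, over a range of 0.00508 to 0.857 in the alternatives), and in P195A/- it was 0.16 (adjusted p = 0.506). The deposited counts are per gene, so the long and short forms, and RNA from a null allele, were not separated. Adarb1 averaged 304.9 ± 7.21 CPM in P195A/-, 303.8 ± 25.3 in P195A/P195A, 316 ± 35.6 in P195A/+ and 305.5 ± 19.9 in wild type, and did not pass the test in any comparison. Adarb2, a brain paralogue with no known editing activity, averaged 49.5 ± 6.98 CPM in P195A/-, 58.4 ± 12.2 in P195A/P195A, 42.1 ± 0.991 in P195A/+ and 43.9 ± 3.18 in wild type, and did not pass either.

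Library totals ranged from 13539148 to 22399005 estimated counts. Replicate 2 of P195A/P195A was the smallest library and replicate 3 of P195A/- had the highest mitochondrial share, 1.57% against 0.457 to 0.79% in the others. Of 10 lists of cell type markers, the olfactory bulb list held the marker that passed the edgeR test. All 5 of its markers were measured, and they summed to 7.63 to 20.6 CPM in P195A/-, 37.7 to 45.8 in P195A/P195A, 11.4 to 15.5 in P195A/+ and 25.2 to 30.6 in wild type. Cdhr1, of mitral and tufted cells, differed by -1.92 (log2) in P195A/- against P195A/P195A (edgeR adjusted p = 0.0253), where DESeq2 also called Omp and Doc2g. Against wild type DESeq2 called Cdhr1 lower in P195A/- and in P195A/+, Gad1, of inhibitory neurons, lower in P195A/-, and Opalin, of oligodendrocytes, higher in P195A/+, none of which passed the edgeR test. Summed markers of neurons ranged over 3690 to 4132 CPM in P195A/-, 3695 to 4461 in P195A/P195A, 3756 to 4066 in P195A/+ and 4184 to 4376 in wild type, so every library carried the markers of the labelled tissue, and P195A/- and P195A/+ lay below wild type. Summed markers of astrocytes were 6379 to 7108 CPM in P195A/-, 6545 to 7230 in P195A/P195A, 7295 to 7762 in P195A/+ and 7250 to 8016 in wild type, with P195A/- and P195A/P195A below wild type. Those of oligodendrocytes were 5937 to 6224 CPM in P195A/-, 4956 to 5563 in P195A/P195A, 5369 to 6586 in P195A/+ and 4782 to 5528 in wild type, with P195A/- above wild type and P195A/P195A. The sums of the other 6 lists overlapped with wild type in every mutant genotype, apart from precursors in P195A/+, at 199.9 to 229.4 CPM, against 194 to 199.2 in wild type. The part of tissue composition in the editing levels and in expression was not tested, and in whole brain fewer cells of a type cannot be told apart from less RNA per cell.

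Averaged over the 5 genes, the editing level was highest in P195A/P195A brains and lowest in wild type. The mean of the 5 gene levels was 18.6, 18.9 and 19.2% in P195A/- brains, 22.1, 20, 22.3 and 21.9% in P195A/P195A, 18.7, 19.2 and 18.5% in P195A/+, and 17.2, 17.9 and 17.4% in wild type. P195A/P195A lay above each other genotype in every library, P195A/- and P195A/+ overlapped, and both lay above wild type. The mean difference from wild type was 1.41 percentage points in P195A/- brains, 4.08 in P195A/P195A and 1.29 in P195A/+, and that of P195A/- from P195A/P195A was -2.68. With 3' UTR sites alone, and likewise at a minimum of 20 reads per site, the difference from wild type was 1.1 points in P195A/- brains, 6.07 in P195A/P195A and 2.61 in P195A/+. That of P195A/- from P195A/P195A was then -4.96. At a minimum of 5 reads these were 1.26, 2.39, 0.914 and -1.13. Among animals of 48 days the P195A/P195A difference was 4.56. By gene, over all used sites, P195A/- differed from wild type by 5.32 points in Arf3 and 1.14 in Kif3c. It differed by 0.507 in Cds2, 0.196 in Gnl3l and -0.138 in Bri3bp, and the libraries overlapped in every gene but Arf3. The Arf3 mean covers 4 sites, 2 of them in introns. Its intron site at chr15:98758113 differed by 11.4 points, with 10 to 22 reads per library. The other 3' UTR sites averaged 13.8 ± 0.191% in P195A/-, 15.5 ± 0.615% in P195A/P195A, 15.1 ± 0.164% in P195A/+ and 14 ± 0.398% in wild type (SD over libraries), so P195A/P195A was also highest there, with a difference of 1.47 points from wild type. There the difference was 1.15 points in P195A/+ and -0.157 in P195A/-, whose libraries overlapped with wild type.

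**Figure D1:**
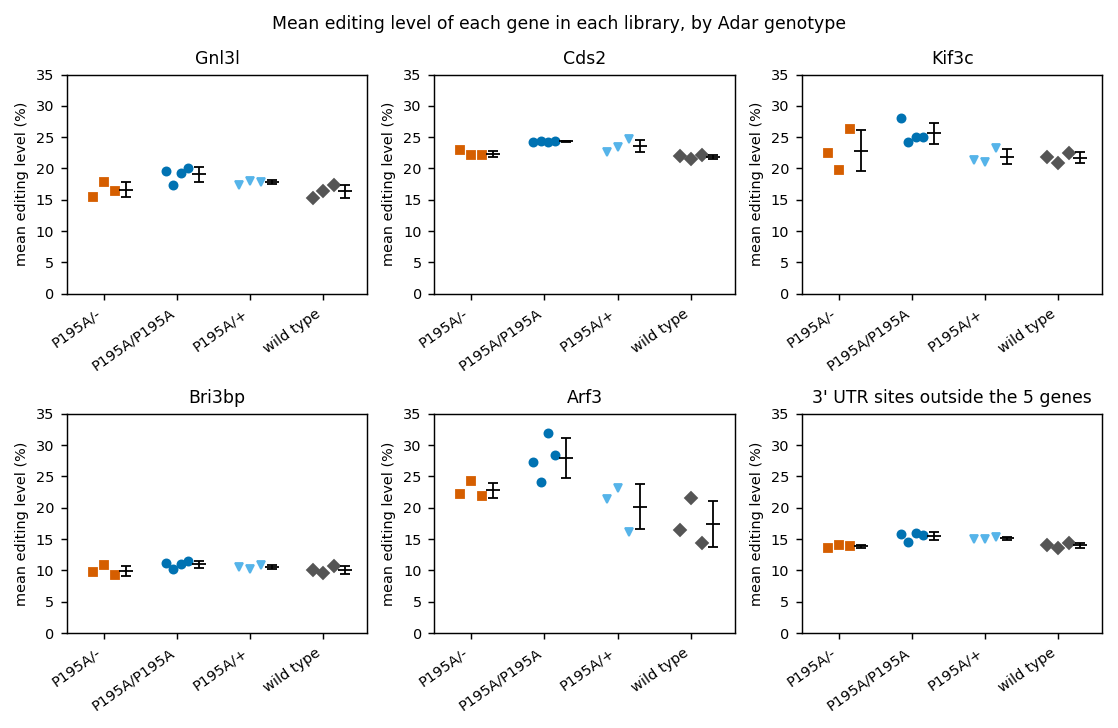
Mean editing level (%) of the used sites of each gene in each library, with the 3' UTR sites outside the 5 genes for comparison. Points are libraries, and bars to their right give the mean and SD of P195A/-, P195A/P195A and P195A/+ (n = 3, 4 and 3) and wild type (n = 3). The P195A/P195A libraries of Cds2 sit within 24.3 to 24.4%, above those of P195A/- and wild type.

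Averaged over all used sites, the genes did not all keep the order of Adar RNA. Gnl3l and Cds2 did so in their means, with Gnl3l at 16.6 ± 1.18% in P195A/-, 19.1 ± 1.18% in P195A/P195A, 17.8 ± 0.353% in P195A/+ and 16.4 ± 1.06% in wild type. Cds2 had 22.4 ± 0.428% in P195A/-, 24.3 ± 0.0523% in P195A/P195A, 23.6 ± 0.982% in P195A/+ and 21.9 ± 0.353% in wild type. For Gnl3l, P195A/- and wild type differed by 0.196 points, less than their SD. Bri3bp averaged 9.96 ± 0.792% in P195A/-, 11 ± 0.572% in P195A/P195A, 10.5 ± 0.322% in P195A/+ and 10.1 ± 0.599% in wild type, and its libraries overlapped in all 4 comparisons. Kif3c averaged 22.9 ± 3.29% in P195A/-, 25.6 ± 1.71% in P195A/P195A, 21.9 ± 1.11% in P195A/+ and 21.7 ± 0.882% in wild type. Arf3 averaged 22.7 ± 1.23% in P195A/-, 27.9 ± 3.23% in P195A/P195A, 20.2 ± 3.61% in P195A/+ and 17.4 ± 3.67% in wild type, so in both genes the mean of P195A/- stood above that of P195A/+. These means of Kif3c and Arf3 include intron sites, which were read less deeply. At the Arf3 3' UTR sites P195A/+ stood above P195A/-, at 61.9 against 57.4% and 9.55 against 6.62%. Over the Kif3c 3' UTR sites alone, P195A/+ also stood slightly above P195A/-. In all 5 genes P195A/P195A had the highest mean, and the difference of P195A/- from it ran between -1.01 points in Bri3bp and -5.18 points in Arf3.

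Gnl3l (ENSMUSG00000025266, chrX:150983141-151017322, minus strand, with a 3' UTR of 2963 bases) encodes a nucleolar GTP-binding protein related to nucleostemin. Its base 1486, opposite a cytosine in the predicted fold and read 353 to 659 times per library, had levels of 51.3, 51.4 and 50.4% in P195A/- brains, 73.4, 65.8, 74.4 and 70.7% in P195A/P195A, 65.5, 66.3 and 68.0% in P195A/+ and 52.1, 55.3 and 58.4% in wild type. P195A/P195A and P195A/+ lay above wild type in every library, and P195A/- lay below it. The difference from wild type was -4.18 points in P195A/- brains, 15.8 in P195A/P195A and 11.3 in P195A/+, and that of P195A/- from P195A/P195A was -20.0. Base 2229, the adenosine with the near-identical surroundings, had levels of 40.7, 54.7 and 44.6% in P195A/- brains, 72, 53.0, 59.5 and 70.4% in P195A/P195A, 60.6, 55.7 and 54.3% in P195A/+ and 41.4, 50.8 and 49.7% in wild type. There too P195A/P195A and P195A/+ lay above wild type, while P195A/- overlapped with it.

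Adenosines of the Gnl3l 3' UTR differed in their order of genotypes. The sites of this paragraph were picked after their values were seen. Base 575, at the outer end of the arm, averaged 39.4 ± 4.95% in P195A/-, 55.4 ± 2.81% in P195A/P195A, 43.7 ± 0.955% in P195A/+ and 40.8 ± 1.59% in wild type, and P195A/P195A lay above every other library there. Bases 581 and 1519 averaged 17.3 and 10.9% in P195A/- and 23.4 and 19.0% in P195A/P195A, again with ranges that did not overlap. Base 650, in the same arm, averaged 31.9 ± 3.75% in P195A/-, 25.2 ± 1.57% in P195A/P195A, 26.5 ± 5.26% in P195A/+ and 28.3 ± 1.56% in wild type, so P195A/- lay above P195A/P195A in every library. Bases 632, 642 and 1843 were likewise higher in P195A/- than in P195A/P195A in every library, at means of 3.63 against 2.07%, 10.4 against 6.84% and 11.8 against 7.61%. Base 627 averaged 11% in P195A/-, 7.44% in P195A/P195A, 6.28% in P195A/+ and 11.2% in wild type. Over the gene, 9 of 20 sites were highest in P195A/- and 8 in P195A/P195A, so the order of the gene mean was that of part of its sites.

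Cds2 (ENSMUSG00000058793, chr2:132263148-132312050, plus strand, with a 3' UTR of 6765 bases) encodes a CDP-diacylglycerol synthase, which makes the precursor of phosphatidylinositol. Its base 4595, in an A-C mismatch and read 426 to 741 times per library, was the most edited of the 71 sites, with levels of 85.9, 82.0 and 81.2% in P195A/- brains, 90.3, 89.4, 90.9 and 91.5% in P195A/P195A, 86.8, 91.0 and 89.7% in P195A/+ and 85.3, 83.6 and 81.5% in wild type. P195A/P195A and P195A/+ lay above wild type, and P195A/- overlapped with wild type and lay below P195A/P195A. Base 4348, on the other side of the hairpin, had a low level with the same grouping, at 8.39, 4.67 and 3.79% in P195A/- brains, 12.3, 9.04, 11.8 and 11.9% in P195A/P195A, 6.49, 7.5 and 9.98% in P195A/+ and 5.63, 3.48 and 5.94% in wild type. The difference of P195A/P195A from wild type was 7.07 points at base 4595 and 6.26 points at base 4348. At base 4370 the genotypes were close, with 46.9 ± 0.965% in P195A/-, 49.1 ± 2.77% in P195A/P195A, 48.8 ± 2.7% in P195A/+ and 47.2 ± 1.95% in wild type, and all comparisons overlapped. The same held at base 4588, the site with most reads, with 2.7 ± 1.49% in P195A/-, 3.04 ± 0.807% in P195A/P195A, 3.81 ± 1.2% in P195A/+ and 2.4 ± 0.387% in wild type. In a single library the 95% Wilson interval was 4.38 to 7.36 points wide at base 4595 and 2.9 to 5.71 points wide at base 4348. Such intervals cover counting error alone, and reads without molecular identifiers are not independent molecules.

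**Figure D2:**
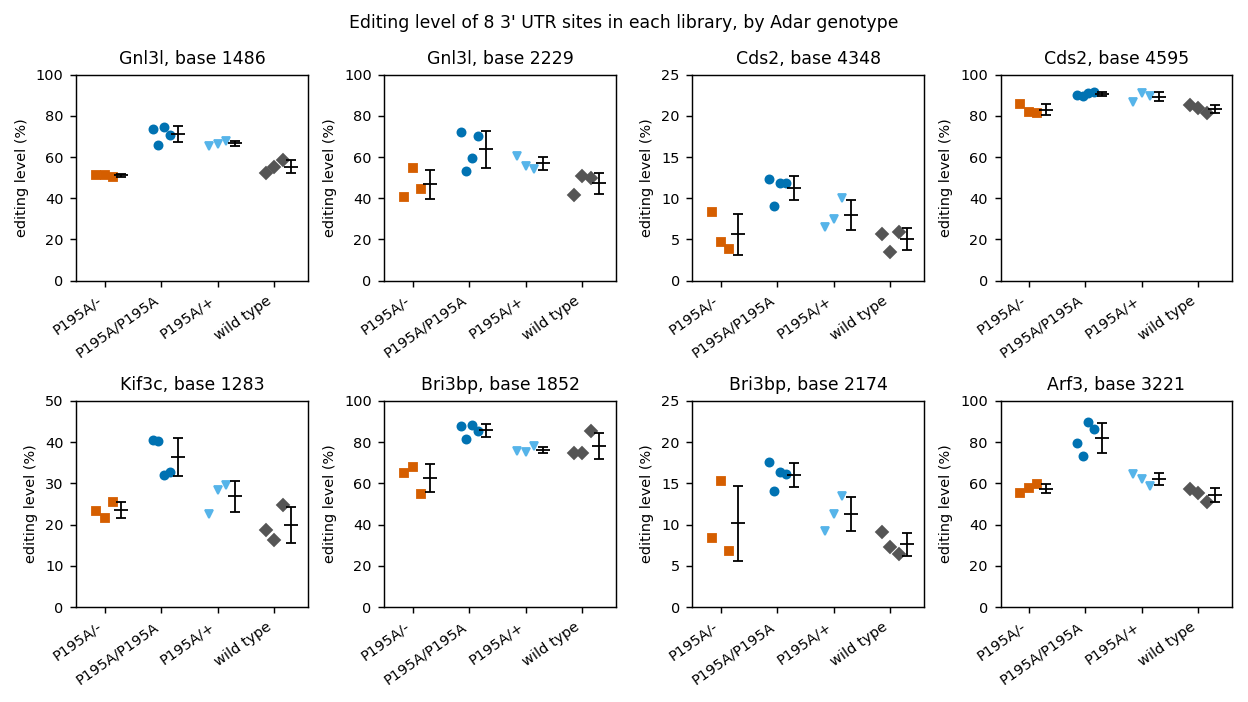
Editing level (%) of 8 3' UTR sites in each library, by Adar genotype, with the base in the 3' UTR in each title and mean and SD beside the points (n = 3, 4, 3 and 3). The vertical scales differ between panels. At Gnl3l base 1486 the P195A/- libraries lie at 50.4 to 51.4%, below the 65.8 to 74.4% of P195A/P195A, and at Cds2 base 4595 all 13 libraries exceed 80%.

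Kif3c (ENSMUSG00000020668, chr12:3365132-3406494, plus strand, with a 3' UTR of 3609 bases) encodes a motor subunit of the kinesin-2 family that is prominent in neurons. Its adjacent bases 1282 and 1283 were both highest in P195A/P195A. Base 1283 had 23.4, 21.7 and 25.4% in P195A/- brains, 40.4, 40.2, 32.0 and 32.8% in P195A/P195A, 22.6, 28.3 and 29.5% in P195A/+ and 18.6, 16.2 and 24.8% in wild type. The P195A/P195A libraries lay above all others, a difference of 16.5 points from wild type, while the remaining genotypes overlapped. Bases 1282 and 1731, singled out after their values were seen, averaged 9.11 and 9.51% in P195A/- brains, 22.5 and 18.5% in P195A/P195A, 12.4 and 10.8% in P195A/+ and 9.05 and 6.69% in wild type. Base 1752, the Kif3c site with most reads, was lowest in P195A/P195A, with 14.8, 19.2 and 14% in P195A/- brains, 12.7, 12.8, 11.3 and 11.6% in P195A/P195A, 13.8, 5.33 and 20.7% in P195A/+ and 18.1, 17.2 and 13.2% in wild type. P195A/P195A lay below wild type and P195A/- there, and P195A/+ spread over the whole range. The genotypes overlapped at the 2 most edited sites, where base 1363 averaged 75.4 ± 5.55% in P195A/-, 75.7 ± 3.29% in P195A/P195A, 74.7 ± 4% in P195A/+ and 72.5 ± 8.45% in wild type, and base 1762 averaged 66.6 ± 3.62% in P195A/-, 69.8 ± 4.31% in P195A/P195A, 66.8 ± 8.67% in P195A/+ and 65.0 ± 1.75% in wild type. The intron site at chr12:3399267, with 16 to 33 reads per library, averaged 51.4 ± 13.2% in P195A/-, 40.3 ± 11.8% in P195A/P195A, 34.8 ± 14.7% in P195A/+ and 43.8 ± 5.6% in wild type, all overlapping.

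Bri3bp (ENSMUSG00000037905, chr5:125441568-125460370, plus strand, with a 3' UTR of 5617 bases) encodes a protein that binds the brain protein BRI3. Its base 1852, an A-C mismatch, had the widest range between genotypes in the gene, with 64.8, 68.0 and 54.9% in P195A/- brains, 87.6, 81.4, 88.4 and 85.4% in P195A/P195A, 75.7, 75.0 and 77.9% in P195A/+ and 74.6, 74.6 and 85.2% in wild type. P195A/- lay below all other genotypes, with a mean difference of -15.6 points from wild type and -23.2 from P195A/P195A, whereas P195A/P195A and wild type overlapped. Base 1870, in the same stretch and picked after its values were seen, had 24.7, 23.1 and 17.5% in P195A/- brains, 15.8, 13.8, 11 and 15% in P195A/P195A, 24.3, 17.9 and 21.3% in P195A/+ and 20.5, 17.3 and 26.1% in wild type. There the P195A/P195A libraries lay below all others. Base 2174 averaged 10.1 ± 4.55% in P195A/-, 16.0 ± 1.47% in P195A/P195A, 11.3 ± 2.05% in P195A/+ and 7.59 ± 1.37% in wild type, with P195A/P195A and P195A/+ above wild type. Base 2724 averaged 47.5 ± 2.59% in P195A/-, 46.5 ± 3.47% in P195A/P195A, 47.0 ± 1.66% in P195A/+ and 41.4 ± 2.52% in wild type, so that all mutant means stood close together. Base 2013, the site with most reads, had 2.55 ± 0.952% in P195A/-, 2.16 ± 0.515% in P195A/P195A, 1.32 ± 0.879% in P195A/+ and 2.67 ± 2.06% in wild type.

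**Figure D3:**
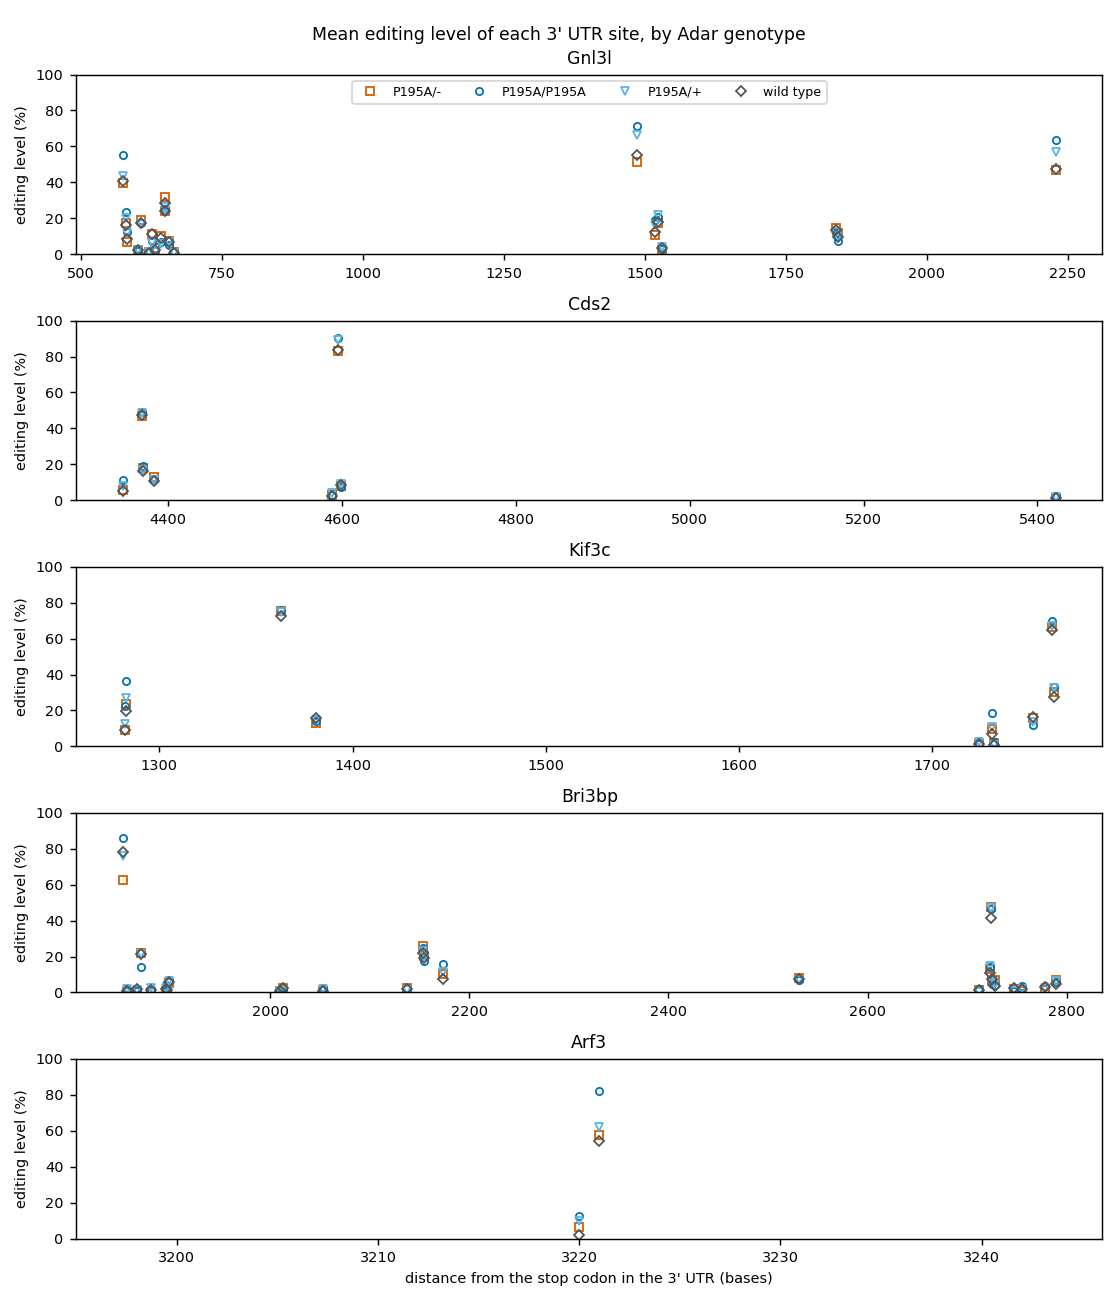
Mean editing level (%) of each of the 65 3' UTR sites against its distance from the stop codon in bases, with squares for P195A/-, circles for P195A/P195A, triangles for P195A/+ and diamonds for wild type. Sites lie in clusters, and within a cluster some have the P195A/P195A circle on top, such as Gnl3l base 575, and others the P195A/- square, such as Gnl3l base 650.

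Arf3 (ENSMUSG00000051853, chr15:98736634-98763214, minus strand, with a 3' UTR of 3699 bases) encodes a small GTPase of the ADP-ribosylation factor family, which recruits coat proteins to Golgi membranes. Base 3221 had 55.1, 57.5 and 59.6% in P195A/- brains, 79.4, 73.3, 89.5 and 86.3% in P195A/P195A, 64.6, 62.2 and 58.8% in P195A/+ and 57.4, 55.1 and 50.9% in wild type. P195A/P195A stood above every other library, 27.7 points above wild type in the means, which was the widest such difference among the 71 sites. With 34 to 69 reads per library, single values there had 95% Wilson intervals of 16.2 to 29.3 points. The adjacent base 3220 had 8.16, 10 and 1.69% in P195A/- brains, 10.8, 8.89, 19.0 and 12% in P195A/P195A, 12.2, 10.6 and 5.77% in P195A/+ and 0.0, 4.35 and 1.75% in wild type, with P195A/P195A and P195A/+ above wild type. The intron sites at chr15:98750225 and chr15:98758113 had 13 to 37 and 10 to 22 reads and overlapped in all comparisons, with means of 9.29 and 17.7% in P195A/- brains, 6.98 and 9.93% in P195A/P195A, 5.2 and 4.17% in P195A/+ and 6.98 and 6.25% in wild type. A level of 0 in a library at such a depth does not show that a site was unedited.

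Over the 71 sites, 20 had their highest mean in P195A/-, 34 (47.9%) in P195A/P195A, 9 in P195A/+ and 8 in wild type. Outside the 5 genes the shares were 22.6% in P195A/-, 27.5% in P195A/P195A, 30.1% in P195A/+ and 19.9% in wild type. Those 9651 sites are no matched set, since 1716 of them lie in 3' UTRs and their median depth was 27 reads. Shares were not counted for the other 3' UTR sites alone. On average these were highest in P195A/P195A, at 15.5% against 15.1% in P195A/+. All other sites together were highest in P195A/+, at 17.4% against 16.8% in P195A/P195A. The full order of Adar RNA, P195A/P195A above P195A/+ above P195A/- above wild type, held at 13 of the 71 sites, and 11 more differed from it in having P195A/- below wild type. Full orders were not counted outside the 5 genes, so these counts have no share to stand beside. The label of the group, sites that follow the Adar level, thus held in full for 13 sites. In the gene means over all used sites it held for Gnl3l and Cds2. Averaged over 3' UTR sites alone, Kif3c and Arf3 kept the order too, and Bri3bp, with no used intron site, did not. The lowest step of the order, P195A/- above wild type, did not pass the test for Adar RNA itself (log2 difference 0.16, edgeR adjusted p = 0.506). In the gene means that step was 0.196 points in Gnl3l and -0.138 points in Bri3bp, with overlapping libraries in both. The values thus do not separate Gnl3l from Bri3bp at this step.

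The same sites were counted where the libraries of 2 genotypes did not overlap. Among those tested in P195A/- against wild type, 5 of 67 lay wholly above and 3 below, where 5.45% and 3.69% of all tested sites did. In P195A/P195A against wild type 18 of 69 lay above and 4 below, beside 5.55% and 2.73% of all sites, and in P195A/+ against wild type 13 of 67 above and 5 below, beside 8.32% and 2.92%. In P195A/- against P195A/P195A 6 of 70 lay above and 14 below, beside 2.81% and 4.56%. These contrasts chose the genes, and the first 3 comparisons share their wild-type libraries, so nothing is read from the counts.

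**Figure D4:**
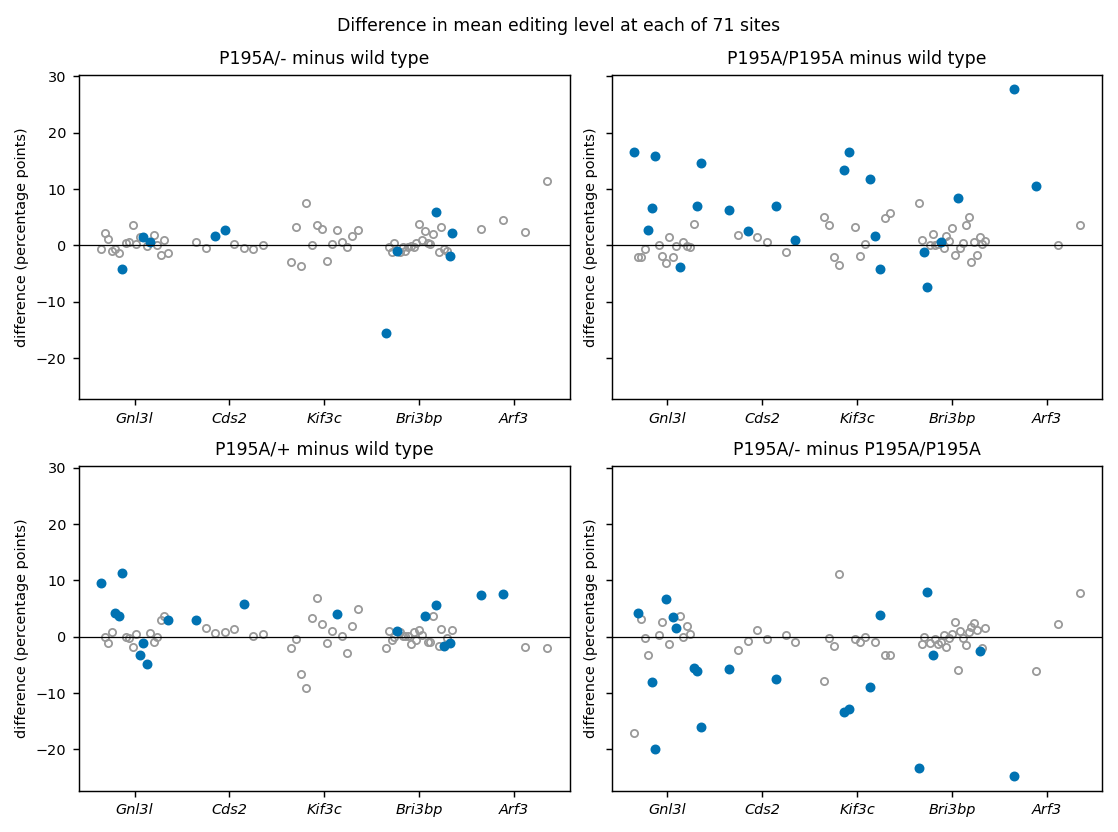
Difference in mean editing level (percentage points) at each of the 71 sites for 4 pairs of genotypes, by gene, in order of position on the chromosome. Filled points are sites whose libraries did not overlap between the genotypes, open points those that overlapped. Arf3 base 3221 lies highest in P195A/P195A minus wild type at 27.7 points, and Bri3bp base 1852 lies at -15.6 points in P195A/- minus wild type.

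In edgeR's quasi-likelihood test of guanosine against adenosine reads, run over all sites, 6 sites of the 5 genes were called in P195A/P195A against wild type, all higher, beside 0.208% of 11551 sites. They were Gnl3l base 1486, Cds2 bases 4348 and 4595, Kif3c bases 1282 and 1731 and Arf3 base 3221. In P195A/- against P195A/P195A 4 were called, all lower, beside 0.0846% of 11818 sites: Gnl3l base 1486, Cds2 bases 4348 and 4595 and Bri3bp base 1852. In P195A/+ against wild type none of the members was called, beside 0.0143% of 14019 sites, and in P195A/- against wild type no site at all of 14177. There 9 and 1 members had an unadjusted p under 0.05, as did 849 and 569 of all sites. limma on logit levels called 0 sites in each of the 4 comparisons, with 0 to 9 members at an unadjusted p under 0.05. Without P195A/- replicate 3, 1 member was called in P195A/- against P195A/P195A, and without P195A/P195A replicate 4, or wild type replicate 2 or 3, 3 were called in P195A/P195A against wild type. Beside these, 4 of all sites were called in the first case, and 14, 8 and 10 in the others. The genes were chosen on these contrasts, so nothing is read from the calls.

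Among 667 other genes with at least 3 used sites and a mean level of at least 5%, the median Pearson r with the mean pattern of the 5 genes over the 13 libraries was 0.141. Among the 5 genes most alike were Dagla, a diacylglycerol lipase, at 0.918, Exoc8, an exocyst subunit, at 0.885, Rbm25, a splicing factor, at 0.856, and Fam13c at 0.846. Dagla averaged 28.4% in P195A/-, 40.0% in P195A/P195A, 32.4% in P195A/+ and 28.5% in wild type over 3 sites, and Exoc8 averaged 17.1% in P195A/-, 19.1% in P195A/P195A, 17.3% in P195A/+ and 15.6% in wild type over 18 sites. The libraries share their depth and genotype across genes, so these r are a description. Between members, r ranged between 0.258 for Kif3c and Bri3bp and 0.857 for Gnl3l and Bri3bp.

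RNA abundance of the 5 genes, which the rule that chose them did not use, was tested over all 19962 measured genes, of which edgeR called few. In P195A/- against wild type it called 0.0351% (0.0301% higher and 0.00501% lower), in P195A/P195A against wild type 0.0501% (0.0451% higher and 0.00501% lower), in P195A/+ against wild type 0.01% (0.00501% higher and 0.00501% lower), and in P195A/- against P195A/P195A 0.0401% (0.02% in each direction). None of the 5 was called in any of the 4 comparisons by edgeR. In P195A/- against wild type Gnl3l, Cds2, Bri3bp and Arf3 had an unadjusted p under 0.05, as did 10.6% of all genes. In P195A/P195A against wild type Cds2, Bri3bp and Arf3 did, beside 5.89% of all genes, in P195A/+ against wild type Bri3bp, beside 4.48%, and in P195A/- against P195A/P195A Cds2, beside 6.82%. DESeq2 called Cds2, Bri3bp and Arf3 lower in P195A/- against wild type, where it called 1.54% of the 10775 genes it gave an adjusted p, 1.17% of them lower. It called none of the 5 in the other 3 comparisons, beside 0.0879% of genes in P195A/P195A against wild type, 0.0958% in P195A/+ against wild type and 0.27% in P195A/- against P195A/P195A. The first 3 comparisons share the wild-type libraries.

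Cds2 had 833.2, 917.3 and 839.8 CPM in P195A/-, 964.1, 963.1, 1008 and 957.7 in P195A/P195A, 1034, 966.4 and 1071 in P195A/+ and 1044, 1126 and 1164 in wild type. P195A/- was below all other libraries, and P195A/P195A was below wild type. The log2 difference from wild type was -0.36 in P195A/- (SE 0.0669, edgeR adjusted p = 0.0837), -0.19 in P195A/P195A (adjusted p = 0.83) and -0.12 in P195A/+ (adjusted p = 0.999). With DESeq2 the first was -0.37 (adjusted p = 0.00066), and over all alternatives its adjusted p lay between 0.00066 and 0.527, the highest with females only.

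Arf3 had 639.6, 750.8 and 634.8 CPM in P195A/-, 703.8, 662.3, 773.8 and 705.8 in P195A/P195A, 714.2, 753.2 and 764.8 in P195A/+ and 792, 839.3 and 861.6 in wild type. Every mutant library lay below every wild-type one. Its log2 difference from wild type was -0.30 in P195A/- (SE 0.0782, edgeR adjusted p = 0.227, or 0.0407 with DESeq2, over a range of 0.0407 to 0.607 in the alternatives), -0.22 in P195A/P195A (adjusted p = 0.83) and -0.16 in P195A/+ (adjusted p = 0.999). Bri3bp had 215.3, 219.4 and 214 CPM in P195A/-, 246.5, 220.2, 235.3 and 240.3 in P195A/P195A, 248.9, 216.8 and 239.5 in P195A/+ and 245.1, 266.9 and 273.2 in wild type. Its log2 difference was -0.28 in P195A/- (SE 0.0732, edgeR adjusted p = 0.233, or 0.0406 with DESeq2, over a range of 0.0406 to 0.598 in the alternatives). P195A/- lay below wild type in every library of both genes, a difference that did not pass the edgeR test. The summed markers of neurons and astrocytes also lay below wild type in every P195A/- library and those of oligodendrocytes above it. Their part in the lower Cds2, Arf3, Bri3bp and Gnl3l values was not tested.

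Gnl3l averaged 315.2 ± 18 CPM in P195A/-, 338.3 ± 14.2 in P195A/P195A, 340.3 ± 28.6 in P195A/+ and 372 ± 16 in wild type, with a log2 difference of -0.24 in P195A/- against wild type (SE 0.0757, edgeR adjusted p = 0.281). Its P195A/- libraries, at 295.9 to 331.6 CPM, all lay below the wild-type ones, at 357.1 to 388.9 CPM. Kif3c averaged 250.9 ± 16.4 CPM in P195A/-, 255.8 ± 15.6 in P195A/P195A, 239.1 ± 27.8 in P195A/+ and 246.3 ± 9.96 in wild type, and its largest log2 difference from wild type was 0.05, in P195A/P195A (SE 0.0816, edgeR adjusted p = 0.934). In P195A/- against P195A/P195A the log2 differences of the 5 genes ranged over -0.17 in Cds2 (edgeR adjusted p = 0.65) and -0.03 in Kif3c (adjusted p = 0.996). A p above the threshold does not show that the levels were equal. CPM are not divided by transcript length, so levels are not compared between genes.

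**Figure D5:**
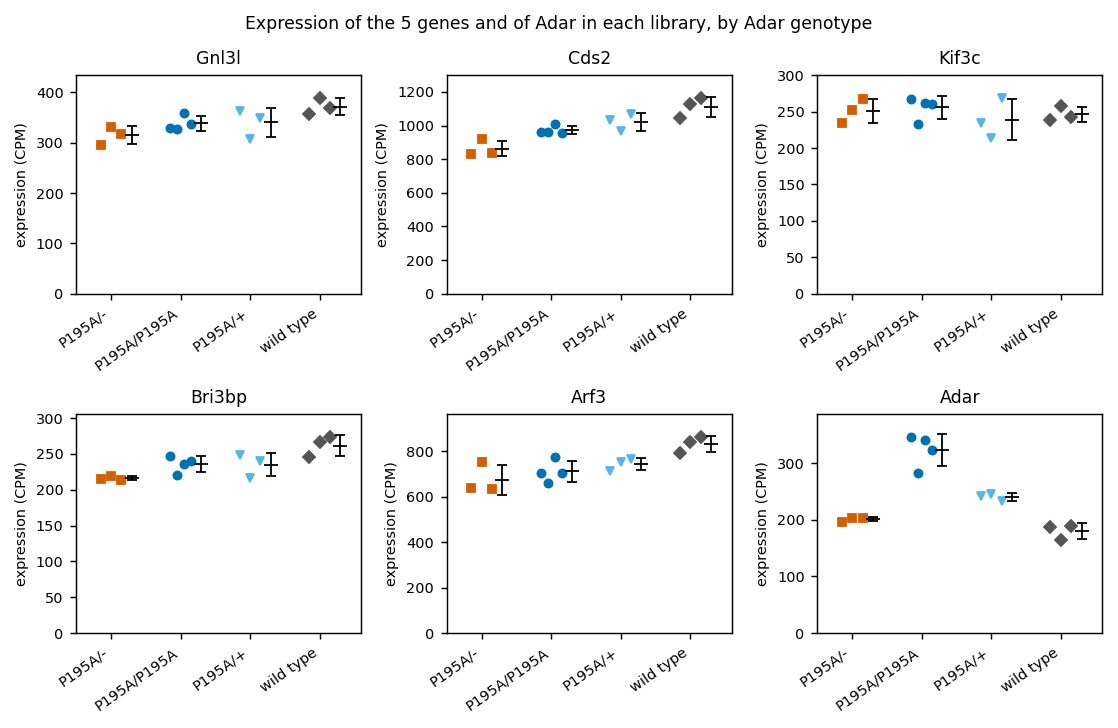
Expression (CPM after TMM scaling) of the 5 genes and of Adar in each library, by Adar genotype, with mean and SD beside the points (n = 3, 4, 3 and 3). Vertical axes start at 0 and differ between panels. For Cds2 the P195A/- libraries reach 917.3 CPM and the wild-type ones start at 1044 CPM, while Adar is highest in P195A/P195A at 282.4 to 345.6 CPM.

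Relatives and partners of the 5 genes were listed to set their RNA beside that of their families, such as kinesin-2 subunits, ARF GTPases and their exchange factors, and enzymes of phosphatidylinositol and cardiolipin synthesis. All 30 were measured, and edgeR and DESeq2 each called 0 of them in each of the 4 comparisons. In P195A/- against wild type 7 of the 30 had an unadjusted p under 0.05, as did 10.6% of all genes. The median log2 difference of the 30 was -0.10, beside 0.02 over all genes. The smallest p there belonged to Kifap3, the kinesin-2 adaptor, at -0.24 (edgeR adjusted p = 0.265) and Arf4, another ARF GTPase, at -0.28 (adjusted p = 0.31). In the other comparisons the median was -0.03 in P195A/P195A against wild type, -0.01 in P195A/+ against wild type and -0.08 in P195A/- against P195A/P195A. There 0, 0 and 4 members had an unadjusted p under 0.05, beside 5.89, 4.48 and 6.82% of all genes.

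Regulators of editing and readers of edited or double-stranded RNA, such as Zfr, Dhx9, Staufen proteins and the sensors Ifih1 and Eif2ak2, had 33 of 37 listed members measured, and edgeR and DESeq2 each called 0 of them in each comparison. Their median log2 difference was 0.11 in P195A/- against wild type, 0.09 in P195A/P195A against wild type, 0.05 in P195A/+ against wild type and 0.00 in P195A/- against P195A/P195A. In this order 5, 5, 3 and 2 members had an unadjusted p under 0.05, beside 10.6, 5.89, 4.48 and 6.82% of all genes. Fxr2, an RNA-binding protein of the fragile X family, had the smallest p in P195A/- against wild type, at 0.30 (edgeR adjusted p = 0.269), and Dhx58, which encodes the RIG-I-like receptor LGP2, in P195A/P195A against wild type, at 1.49 (adjusted p = 0.694).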

How the data were processed

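RNA of whole brain was measured in 13 libraries of 4 Adar genotypes, grouped by the short genotype label. The deposited estimated counts per gene came from fastp 0.19.5 and Salmon, both named in the submitters' processing notes. The authors also deposited read count tables of A, C, G and T at listed editing sites on mm10, from JACUSA2 2.0.0-RC5, per the file headers, with a minimum coverage of 3 and a depth cap of 3000. No source used here gives the aligner. JACUSA2's deposited score of each site gave no result here.

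A level is G over A plus G on the transcript strand, and a gene's level is the unweighted mean over its used sites in a library. Tables of different comparisons hold identical reads for the libraries they share. Members and lists were chosen with earlier results of these data known. Named sites are, per gene, the 2 of highest mean level, the one with most reads and the 2 of widest range between genotype means, or all where a gene has under 5, and further ones are marked where they stand. A few items that these rules choose are not reported here. After rounding, expression was tested with edgeR 4.0.16 (R 4.3.3; filterByExpr, TMM, robust quasi-likelihood) on all 13 libraries together, with a Benjamini-Hochberg adjusted p under 0.05 as threshold. Sites were fitted per comparison table. Replicates are separate animals. Alternatives were RLE scaling, DESeq2 1.42.0, limma 3.58.1 on logit levels (offset 0.5), no low-count filter, sex as a term, females only, animals of 48 days, 2 genotypes only, coverage of 5 or 20, other level limits, reads pooled over sites and each library left out. Of 54307 entries, 51482 matched GENCODE M21 by gene ID. Self-complementary stretches came from BLAST 2.17.0 (word size 7, e-value 0.001) and pairing from RNAfold 2.7.2, with 250 bases on each side. Scripts were tested on simulated data.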

Additional observations from a re-analysis of the deposited data

Results flagged for a closer look

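Among 32 groups of 4 P195A/P195A libraries examined, 2 had a library far from the others, and chance alone flags about 1 in 20 groups. At Cds2 base 4348 replicate 2 had an editing level of 9.04%, below the other P195A/P195A libraries, which reached 12.3%. In Cds2 RNA abundance replicate 3 had 1008 CPM, above the other P195A/P195A libraries, the lowest of which had 957.7 CPM.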

How the results depend on the processing

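The mean editing difference of the 5 genes kept its sign in every alternative. At a coverage minimum of 5 reads it was 2.39 points in P195A/P195A, 0.914 in P195A/+ and -1.13 in P195A/- against P195A/P195A. At 20 reads, and with 3' UTR sites only, it was 1.1, 6.07, 2.61 and -4.96. With reads pooled over sites it was 0.985 in P195A/- and 2.21 in P195A/+ against wild type and -3.75 in P195A/- against P195A/P195A. Called member sites in P195A/P195A against wild type numbered 3 at 5 reads, 11 at 20 reads, 2 with no level filter, 10 with pooled levels of 5 to 99% and 0 with limma, and in P195A/- against P195A/P195A 2, 8, 2, 8 and 0. Leaving out a library gave 3 to 5 in the first, with 3 without P195A/P195A replicate 4 or wild type replicate 2 or 3, and 1 to 6 in the second, with 1 without P195A/- replicate 3 and 2 without P195A/- replicate 2 or P195A/P195A replicate 1 or 3. Over all sites, the first had 10 of 29427 called at 5 reads and 43 of 3450 at 20 reads. It had 8 of 12949 with no level filter, 28 of 8721 with pooled levels of 5 to 99% and 0 with limma. In the second these were 7 of 29952, 25 of 3407, 3 of 13113, 19 of 8932 and 0. Leaving out a library gave 7 to 21 of all sites in the first and 4 to 14 in the second. In P195A/- and P195A/+ against wild type 0 member sites were called by edgeR or limma under each of these settings. Over all sites at most 1 and 3 were called there. The causes were not tested.

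Genes called numbered 7 for P195A/-, 10 for P195A/P195A and 2 for P195A/+ against wild type, and 8 for P195A/- against P195A/P195A. In this order they were 16, 12, 7 and 29 with no low-count filter, 166, 18, 19 and 50 with DESeq2, and 16, 5, 11 and 5 with only the genotypes compared, 5 in P195A/P195A with animals of 48 days and 0 in P195A/+ with females. With a library left out they ranged over 2 to 6 (2 without each wild-type library in turn, 3 without P195A/- replicate 2), 5 to 13 (5 without wild type replicate 1, 6 without wild type replicate 3), 1 to 2 (1 without wild type replicate 2) and 5 to 15 (5 without P195A/P195A replicate 1 or 4, 15 without replicate 2). Signs turned for Adarb1 and Kif3c, whose differences were within 0.05 of 0, and for Adarb2, at -0.24 with all animals. With females only, Adarb1 was at -0.036 in P195A/+ and 0.012 in P195A/P195A against wild type and at -0.025 in P195A/- against P195A/P195A, Kif3c at -0.032 in P195A/- against wild type, and Adarb2 at 0.015 in P195A/- against P195A/P195A (log2). With only the genotypes compared Adarb1 in P195A/P195A was at 0.003. With a library left out Adarb1 ranged over -0.046 to 0.037 in P195A/-, -0.042 to 0.035 in P195A/P195A, -0.036 to 0.131 in P195A/+ and -0.037 to 0.038 in P195A/- against P195A/P195A, and Kif3c over -0.007 to 0.067 in P195A/-, -0.137 to 0.035 in P195A/+ and -0.081 to 0.018 in P195A/- against P195A/P195A.

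Samples were not treated as paired by replicate number. Of 18 pairs of the same number, 4 had a correlation of deviations over 0.1, over a range of -0.074 to 0.227. For 8 of 13 libraries the best match was among libraries of their own number, a count not set against chance. Whether the numbers mark something shared was not tested. With a replicate block 2 member sites were called in P195A/P195A against wild type, of 10 over all sites, and 3 in P195A/- against P195A/P195A, of 9. Genes called then numbered 6, 8, 2 and 7. Depth limits the intron sites most, with 10 to 37 reads.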
